A study of Bos taurus with 147 samples.

Results

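Ribosomal proteins of the cytoplasm and of the mitochondrion were followed in the adrenal cortex of 145 cows. Members were the transcripts whose single gene symbol in the platform annotation names an RPL, RPS, RPSA or RPLP protein (cytoplasmic class) or an MRPL or MRPS protein (mitochondrial class), which gave 124 of the 10986 transcripts in the value table. The cytoplasmic class had 47 transcripts of 41 genes. Of these, 4 transcripts of RPL39 carried identical values and were counted as 1, which left 44. The mitochondrial class had 77 transcripts of 75 genes. All 124 gene identifiers were found in RefSeq under the same symbol. The rule reads symbols alone and uses no measured value. All 124 were tested, with no further filter on low signals.

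The cows were F2 animals of a Charolais × German Holstein cross, slaughtered at day 30 after calving in the second lactation. No group received a treatment. The groups are the 25 classes of year and season of slaughter in the labels, with 2 to 13 cows each, over 8 consecutive years that end with 2011, a winter being counted under the year in which it began. The cows were 1321 ± 120.4 days old (SD, range 1127 to 1774 days), and each gave 1 array. The 8 years held 7, 11, 6, 22, 39, 24, 21 and 15 cows in this order, so that 2008 is the fifth year. Summer was the season of 45 cows, autumn of 38, spring of 36 and winter of 26. The families of half-sibs and full-sibs were not part of the fits, so their effects remain in the residuals, and p-values measure the spread between related cows. How long tissue or RNA was stored and when arrays were run were not given in the sources used here, so these and the year of slaughter cannot be told apart. RNA of a whole piece of tissue also does not separate a change in the share of a cell type from a change in RNA per cell.

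The ribosome of the cytoplasm translates nuclear messages. Its proteins are made in balanced amounts, and their messages share a pyrimidine-rich start that places their translation under control of growth signals. The mitochondrial ribosome is a separate machine of different proteins, which are encoded in the nucleus, imported, and assembled on mitochondrial rRNA. It makes only a few core subunits of the respiratory chain. In the adrenal cortex the mitochondrion holds the side-chain cleavage enzyme CYP11A1, which opens steroid synthesis, so that energy and hormone production share this organelle.

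Both classes were higher in cows slaughtered later. With season and age in the model and cows of the same year-season class treated as a random block (limma, Benjamini-Hochberg adjustment over all transcripts, threshold 0.05), 41 of the 44 cytoplasmic transcripts rose with the year of slaughter and 0 fell. Of the 77 mitochondrial transcripts 58 rose, 2 fell and 17 did not pass the test. Over all 10986 transcripts 25.7% rose and 19.2% fell, so the shares of 93.2% and 75.3% that rose among the members stood above the background. The median slope was 0.048 log2 units per year for cytoplasmic and 0.039 for mitochondrial members, against 0.0026 over all transcripts. These slopes correspond to 3.38% and 2.73% per year. The correlation of cows within a block was estimated at -0.015, so the block took up no shared variance. The p-values of the year slopes thus treat the cow, not the year, as the unit. Without the block 41 cytoplasmic and 56 mitochondrial transcripts rose, against 24.8% of all transcripts.

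Both subunits took part. In the cytoplasmic class 25 of 26 large-subunit and 16 of 18 small-subunit transcripts rose. In the mitochondrial class 37 of 50 transcripts with MRPL symbols and 21 of 27 with MRPS symbols rose, and 1 of each kind fell. A further 44 transcripts that carry several symbols, one of them a cytoplasmic ribosomal protein, among them that of RPL13, were not members because they cannot be given to a single gene. Of these 37 rose and 0 fell, with a median slope of 0.038 log2 units per year.

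**Figure D1:**
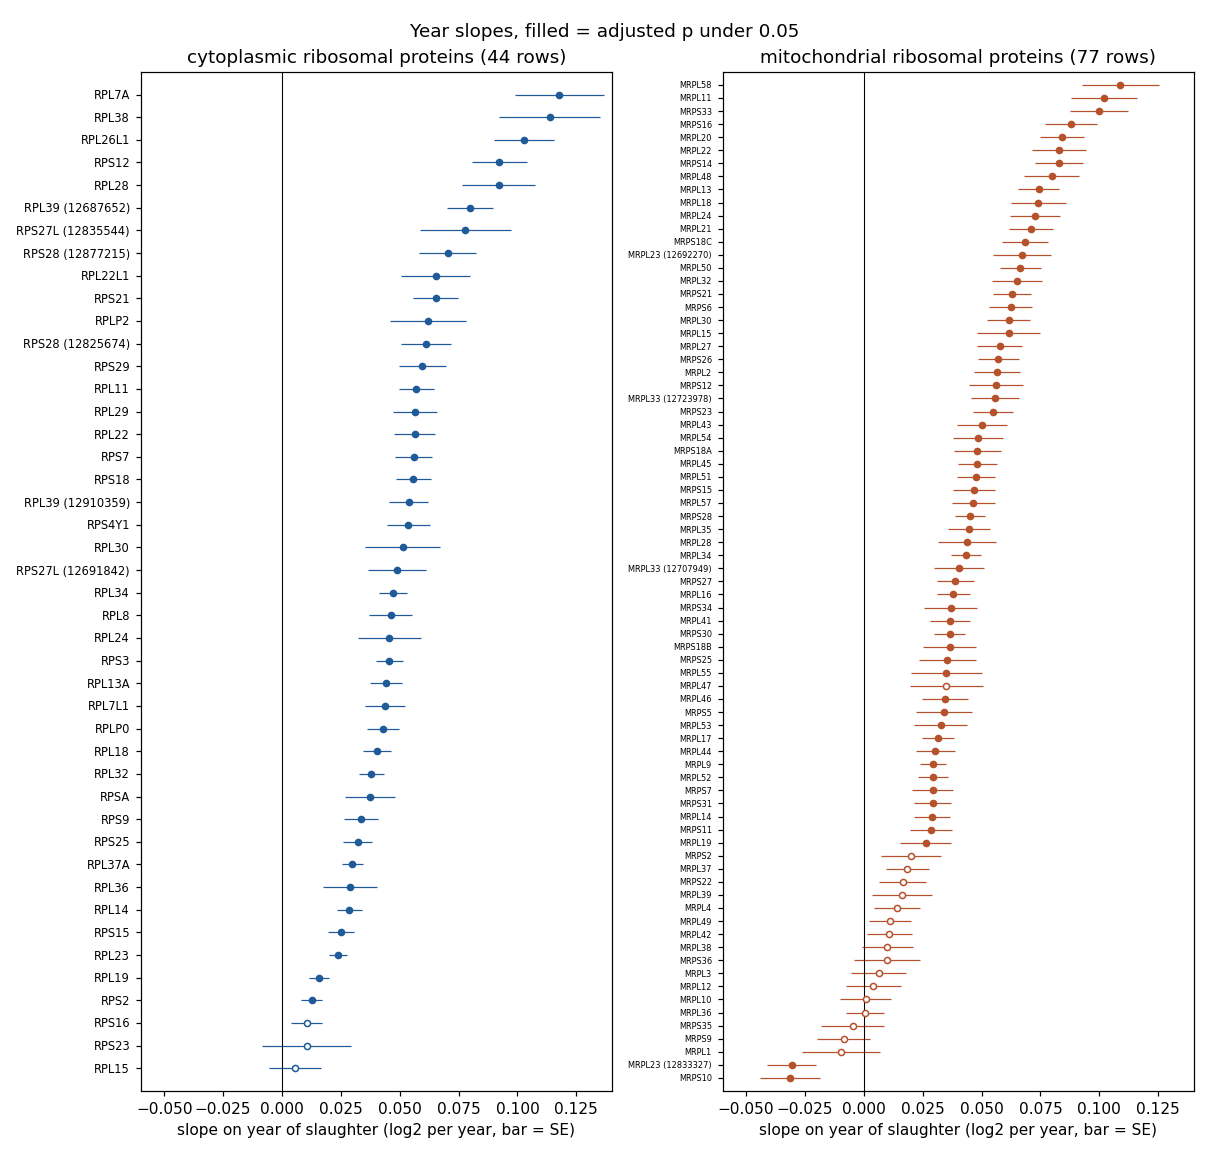
Slope of each member's log2 signal on the year of slaughter (x axis, log2 units per year, bars are SE, 145 cows), with the cytoplasmic class on the left and the mitochondrial class on the right. Filled points passed the test, and only MRPS10 and one of the 2 MRPL23 transcripts passed it below 0.

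Among cytoplasmic members RPL7A, a protein of the large subunit, had the steepest slope, 0.118 ± 0.019 (SE) log2 units per year (limma adjusted p = 1.1e-07), which is 1.77-fold over 7 years. Its yearly median log2 signal was 9.09, 8.90, 9.09, 8.96 and 8.91 in the years up to 2008, and then 9.39 in 2009, 9.54 in 2010 and 9.74 in 2011. The 7 cows of the first year lay between 8.80 and 9.58 and the 15 cows of 2011 between 9.40 and 10.05, so the first and last year overlapped. The medians up to 2008 thus lay close together and those of the later years above them. Within the cows up to 2008 the slope of RPL7A was -0.059 (limma adjusted p = 0.16), and within those from 2009 on it was 0.216 ± 0.057 (limma adjusted p = 0.017). RPL7A and the split after 2008 were both chosen from these values, so these 2 p-values are descriptions.

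RPL38, another large-subunit protein, whose signal was low on this array (5.38 ± 0.54, mean log2 signal ± SD of 145 cows), had a slope of 0.114 ± 0.021. RPL26L1, a close relative of RPL26, had 0.103 ± 0.013. RPS12 of the small subunit had 0.092 ± 0.012, and RPL28 of the large subunit had 0.092 ± 0.015. The largest adjusted p of these 4 was 4.6e-06 (limma). The 3 cytoplasmic transcripts that did not pass were RPL15, with a slope of 0.0054 ± 0.011, RPS23, with 0.010 ± 0.019, and RPS16, with 0.010 ± 0.0066. RPL15 and RPS23 were also 2 of the 3 members least correlated with the rest of their class. RPS23 had the lowest mean signal of all members (4.30 ± 0.44, mean log2 signal ± SD of 145 cows).

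Few members separated the first and the last year completely. RPS3, which lies at the entry of the mRNA channel of the small subunit, ranged from 11.62 to 11.78 in the 7 cows of the first year (median 11.69) and from 11.80 to 12.08 in the 15 cows of 2011 (median 11.96). All cows of 2011 were above all cows of the first year. RPS18, of the head of the small subunit, ranged from 11.06 to 11.24 in the first year (median 11.18) and from 11.33 to 11.60 in 2011 (median 11.43), again without overlap. Only these 2 of the 44 cytoplasmic transcripts and 2 of the 77 mitochondrial ones had no overlap between the first and the last year, against 0.646% of all transcripts.

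In the mitochondrial class the largest slope belonged to MRPL58, a peptidyl-tRNA hydrolase built into the large subunit that releases stalled chains, at 0.109 ± 0.016 log2 units per year (limma adjusted p = 1.9e-08). Its median log2 signal was 8.79 in the first year (8.43 to 9.04, 7 cows), 8.87 in 2008 (7.95 to 9.47, 39 cows) and 9.19 in 2011 (8.67 to 9.81, 15 cows). The first and last year overlapped. MRPL11, a protein of the site where translation factors bind, had a slope of 0.102 ± 0.014 (adjusted p = 9.2e-10). MRPS33 and MRPS16 of the small subunit had 0.100 ± 0.012 and 0.088 ± 0.011, and MRPL20 of the large subunit had 0.084 ± 0.0093 (limma adjusted p = 2.7e-13).

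MRPL20 was one of the 2 mitochondrial members whose cows of the first year and of 2011 did not overlap. Its log2 signal was 8.86 to 9.32 in the first year (median 9.17) and 9.43 to 10.01 in 2011 (median 9.61). The other was MRPS18C, one of 3 mammalian relatives of bacterial S18, with 8.19 to 8.48 in the first year (median 8.36) and 8.49 to 9.02 in 2011 (median 8.75). The highest cow of the first year and the lowest of 2011 were close to each other for MRPS18C.

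Positions on the UMD3.1 assembly were at hand for 3 mitochondrial members. MRPL11 lies on the minus strand of chromosome 29 from 45127205 to 45130554. MRPL18, on the plus strand of chromosome 9 from 97493688 to 97499408, had a slope of 0.074 ± 0.012 log2 units per year (limma adjusted p = 5.6e-08). MRPL46, on the minus strand of chromosome 21 from 19858317 to 19867590, had 0.034 ± 0.0097 (limma adjusted p = 0.0022).

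The 2 mitochondrial transcripts that fell did so by little. MRPS10, a small-subunit protein, had a slope of -0.031 ± 0.013 log2 units per year (limma adjusted p = 0.037). Its median log2 signal was 10.15 in the first year (9.91 to 10.55, 7 cows), 10.03 in 2008 (9.42 to 10.76, 39 cows) and 10.01 in 2011 (9.48 to 10.40, 15 cows). All years overlapped broadly. The other was a transcript of MRPL23, which sits at the exit of the peptide tunnel. The array has 2 transcripts for this gene, and they went in opposite directions. Transcript 12692270 rose by 0.067 ± 0.012 (adjusted p = 2.9e-06), with a median log2 signal of 8.70 in the first year and 9.23 in 2011. Transcript 12833327 had a slope of -0.031 ± 0.010 (adjusted p = 0.011), with medians of 7.23 and 7.16. Over cows, their residuals correlated at r = 0.38 (Spearman's rho = 0.30, n = 145, r = 0.37 without the 2 most distant cows, permutation p = 1e-05, the smallest the permutations can give). No direction can thus be given for MRPL23 as a gene.

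**Figure D2:**
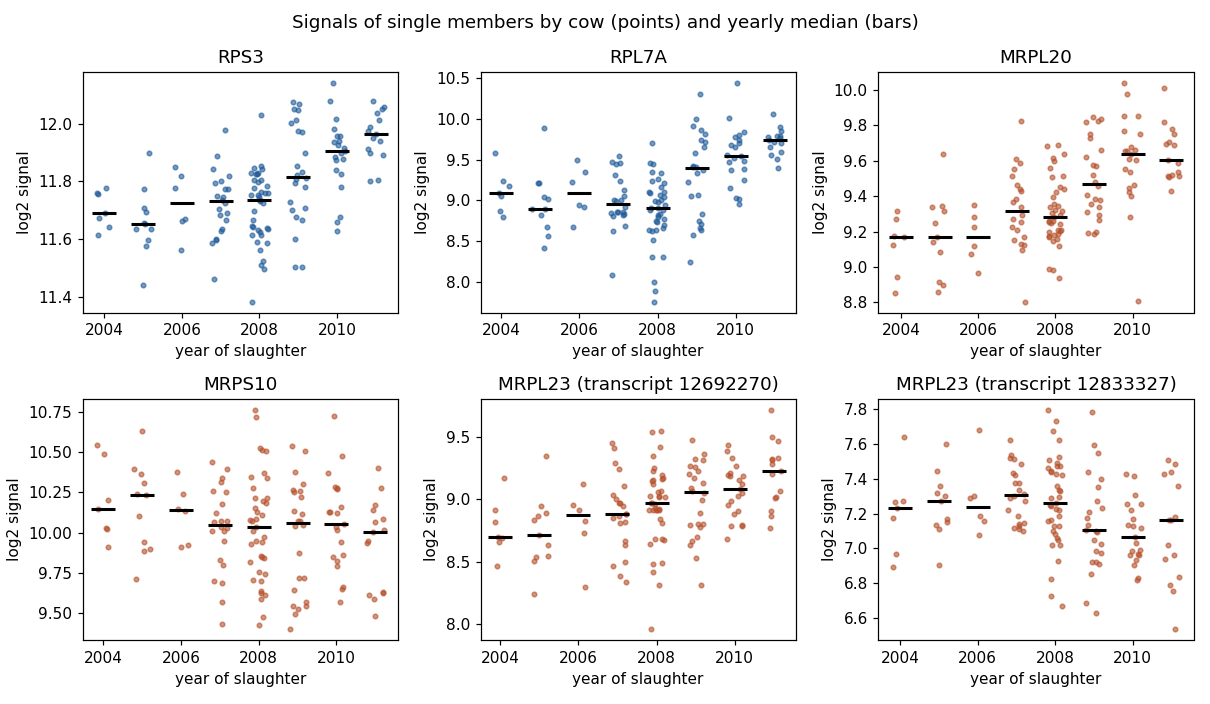
Log2 signal (y axis) of RPS3, RPL7A, MRPL20, MRPS10 and both MRPL23 transcripts in each of 145 cows (points) by year of slaughter (x axis), with the median of each year as a bar. RPS3, RPL7A and MRPL20 are higher from 2009 on, MRPS10 overlaps in all years, and the 2 MRPL23 transcripts run in opposite directions.

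The rise was not even over the years. The mean log2 signal of the cytoplasmic class per cow had yearly medians of 10.17, 10.10, 10.16, 10.17 and 10.14 up to 2008. It was 10.31 in 2009, 10.41 in 2010 and 10.41 in 2011. For the mitochondrial class the medians were 8.76, 8.73, 8.75, 8.82 and 8.82 up to 2008, and 8.93, 9.01 and 8.97 from 2009 to 2011. The cytoplasmic class was level up to 2008 and higher afterwards, while the mitochondrial class also stood slightly higher in the fourth and the fifth year than before.

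The split between 2008 and 2009 was made after these values were seen, so the difference between the 2 periods is given without a test. The median of the 60 cows from 2009 on was above that of the 85 earlier cows for 44 of 44 cytoplasmic and 70 of 77 mitochondrial transcripts, with a median difference of 0.19 and 0.15 log2 units. Over all transcripts 54.1% were higher, with a median difference of 0.013. The 7 mitochondrial exceptions were MRPL23 (transcript 12833327, -0.17), MRPL1 (-0.11), MRPL10, MRPL12, MRPL36, MRPS10 and MRPS9. The slope was then fitted within each period. Because the split was chosen from these values, the calls within the periods are descriptions. In the cows up to 2008 only 1 cytoplasmic transcript rose, RPL39 (transcript 12910359, 0.061 ± 0.015 log2 units per year), and RPL15 fell, at -0.075 ± 0.018 (limma adjusted p = 0.0091), where 2.79% of all transcripts fell. In the mitochondrial class 7 rose there, MRPL13 (0.060 ± 0.013), MRPL21, MRPS14, MRPL50, MRPL20, MRPS28 and MRPL34 (0.035 ± 0.011), against 2.45% of all transcripts. Within the cows from 2009 on, 8 cytoplasmic and 3 mitochondrial transcripts rose, against 3.09% of all transcripts. The cytoplasmic ones were RPL7A, both RPS27L transcripts, RPS29 (0.131 ± 0.032), RPS21, RPL36, RPL39 (transcript 12687652) and RPLP0, the base of the acidic stalk (0.086 ± 0.024), and the mitochondrial ones MRPL18 (0.120 ± 0.038), MRPS6 and MRPS16. Up to 2008, the 1 cytoplasmic transcript of 44 that rose and the 1 that fell were near the shares of all transcripts. From 2009 on, the 3 of 77 mitochondrial transcripts that rose were also near that share. These calls are thus no result about the members. The names that passed differed between the 2 periods, apart from RPL39, which passed in each with another transcript.

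**Figure D3:**
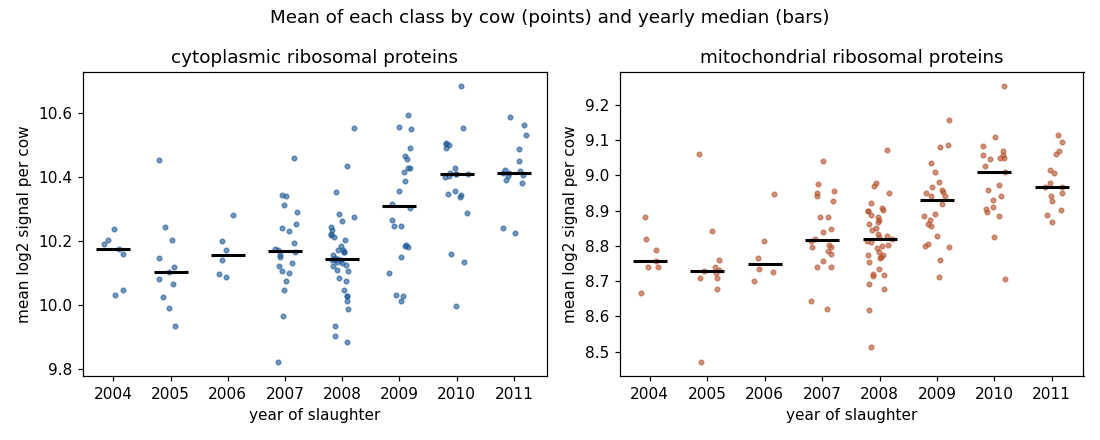
Mean log2 signal of the cytoplasmic class (left) and the mitochondrial class (right) in each of 145 cows (points, y axis) by year of slaughter (x axis), with the median of each year as a bar. The cytoplasmic medians lie between 10.10 and 10.17 up to 2008 and between 10.31 and 10.41 from 2009 on.

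The F-test over the 25 year-season classes called 29 of 44 cytoplasmic and 32 of 77 mitochondrial transcripts, against 11.6% of all transcripts (limma). The largest F among cytoplasmic members belonged to RPL39, which lines the peptide tunnel (F = 4.34, adjusted p = 4.4e-06), and among mitochondrial members to MRPS33 (F = 4.78, adjusted p = 9.2e-07). MRPL13 and MRPS21 followed with F values of 4.73 and 4.71. Without the cows of 2010 the counts were 14 and 21, against 5.31% of all transcripts, and without those of 2011 they were also 14 and 21, against 6.5%.

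Season and age gave no calls. Summer minus winter, any season difference and the slope on age called 0 members of either class and 0% of all transcripts (limma). At an unadjusted p under 0.05, summer minus winter took in 4 cytoplasmic and 10 mitochondrial members, against 13.4% of all transcripts. Any season difference took in 1 and 4, against 9.28%, and age 1 and 11, against 8.47%. The class means showed the same closeness, with a median of 10.24 in 45 summer cows (9.90 to 10.69) and 10.16 in 26 winter cows (9.82 to 10.51) for the cytoplasmic class, and of 8.89 (8.47 to 9.25) and 8.83 (8.62 to 9.08) for the mitochondrial class. These ranges overlapped almost completely.

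Within year-season classes, members of a class went up and down together from cow to cow. Residuals of the fit on class and age were correlated for all pairs of transcripts of different genes. The mean r was 0.445 over 943 cytoplasmic pairs, of which 92.1% were positive, and 0.222 over 2924 mitochondrial pairs, of which 71.8% were positive. Between the classes it was 0.273 over 3388 pairs, while pairs of all other transcripts had a mean r of 0.0049. The points of each r are the same 145 arrays and share their normalization, so these are descriptions. The score of a class in a cow is the mean of its members' standardised residuals, and the 2 scores correlated at r = 0.837 (rho = 0.799, r = 0.817 without the 2 cows most distant in the cytoplasmic score). Cows with high cytoplasmic transcripts thus had high mitochondrial ones in the same class of date.

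**Figure D4:**
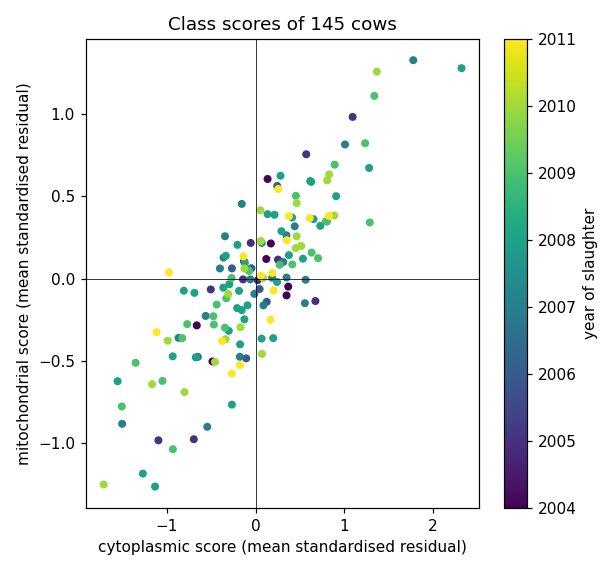
Cytoplasmic score (x axis) against mitochondrial score (y axis), each the mean standardised residual of the class after year-season class and age were fitted, for 145 cows coloured by year. The points lie along a diagonal (r = 0.837). Cows of every year lie on both sides of 0 because each year-season class was fitted with its own mean.

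RPS7 of the small subunit followed its class most closely, with r = 0.912 against the mean of the other cytoplasmic members. RPL39 (transcript 12687652) had 0.905 and RPS3 had 0.893. RPL15, RPL22L1 and RPS23, the last with a low signal, had r between -0.016 and -0.0017. In the mitochondrial class MRPS16 (0.859), MRPL24 (0.834) and MRPL20 (0.807) were closest to the mean. At the other end, 11 of 77 mitochondrial members were negative, with MRPS10 at -0.460, MRPL1 at -0.424 and MRPL3 at -0.387. MRPL1 is the protein of the mobile stalk beside the exit site for tRNA, and the bacterial relative of MRPL3 reaches towards the peptidyl transferase centre. Pairs with r below -0.5 numbered 188 within the mitochondrial class and 0 within the cytoplasmic class.

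These 11 negative members had one more property in common. The first component of the residuals of all transcripts outside both classes held 28.8% of their variance, and it is an array-wide axis of unknown origin. The cytoplasmic score correlated with it at r = -0.599 and the mitochondrial score at -0.635. All 11 negative mitochondrial members, and no other mitochondrial member, correlated with this component above 0.5. MRPL3 had 0.869, MRPS10 0.863, MRPL47 0.857 and MRPL1 0.847. The others were MRPS22, MRPL19, MRPS35, MRPS36, MRPL42, MRPL39 and MRPS31, of which MRPS36 is, despite its symbol, known as a subunit of the oxoglutarate dehydrogenase complex. In contrast, 40 of 77 mitochondrial and 21 of 44 cytoplasmic members were below -0.5. Of all transcripts 26.5% were below -0.5 and 26.2% above 0.5.

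With the component added to the class and age model, the split closed. The 11 members then correlated positively with the mean of the other mitochondrial members, MRPL19 at 0.640, MRPL47 at 0.625, MRPL3 at 0.478 and MRPS10 at 0.274. Of 77 mitochondrial members 1 was still negative, the MRPL23 transcript 12833327 at -0.234, and of 44 cytoplasmic members 0 were. The mean r over pairs stayed near its former value, 0.405 in the cytoplasmic class, 0.217 in the mitochondrial class and 0.218 between them. Strong pairs became fewer. The share of pairs with r above 0.5 went from 47.8% to 31.4% in the cytoplasmic class. It went from 29.7% to 7.49% in the mitochondrial class and from 29.8% to 7.26% between them. The median r of members with the mean of their class went from 0.745 to 0.610 (cytoplasmic) and from 0.599 to 0.511 (mitochondrial). The share of positive mitochondrial pairs went from 71.8% to 86.1%, and 0 pairs were below -0.5. With the same covariate, RPS28 (transcript 12825674, -0.038 ± 0.012 log2 units per 100 days, limma adjusted p = 0.041) and 6 mitochondrial members were called for age, all of them lower in older cows, MRPS25 (-0.057 ± 0.017), MRPL23 (transcript 12692270, -0.050 ± 0.015), MRPL24, MRPS18A, MRPL27 and MRPL2, against 2.07% of all transcripts. The 2 scores, computed anew, correlated at r = 0.707 (rho = 0.594). The component was taken from these arrays, and what it reflects was not tested.

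**Figure D5:**
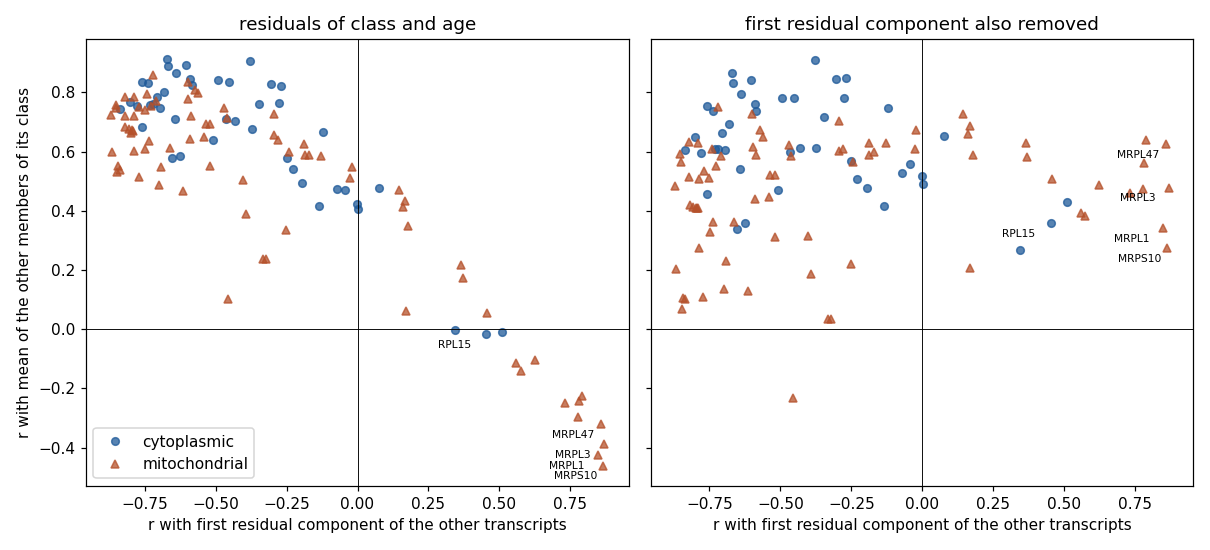
Correlation of each member with the mean of the other members of its class (y axis) against its correlation with the first residual component of the other transcripts (x axis), over 145 cows, for cytoplasmic (circles) and mitochondrial (triangles) members. On the left, 11 mitochondrial members lie below 0 at the right end, and on the right, with the component taken out, they lie above 0.

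The array-wide axis also moved slightly with the date. Applied to the deposited values, its slope was -0.113 ± 0.044 SD per year, with a median of -0.062 in the 7 cows of the first year and -0.543 in the 15 cows of 2011 and wide overlap in all years. With this axis as a covariate, 38 of 44 cytoplasmic and 56 of 77 mitochondrial transcripts still rose with the year, against 23.9% of all transcripts.

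Where a gene had several transcripts, they mostly moved together. The residuals of the 2 RPS28 transcripts correlated at r = 0.908, those of MRPL33 at 0.896, those of RPS27L at 0.855 and those of the 2 distinct RPL39 transcripts at 0.620. Of the relatives, RPL22 and RPL22L1, which are paralogs of the large subunit, correlated at 0.493. MRPS18A and MRPS18B correlated at 0.653, while MRPS18C correlated with them at only 0.169 and 0.213. These were 9 pairs with MRPL23 (two-sided permutation test, 100000 permutations). All transcripts share the arrays, their normalization and the array-wide component, so a small p does not set a pair apart from these. The Benjamini-Hochberg adjusted p was 1.3e-05 for 7 of the 9 pairs, 0.011 for MRPS18B with MRPS18C and 0.041 for MRPS18A with MRPS18C. The last pair had rho = 0.115 (permutation p = 0.17) and r = 0.089 without the 2 most distant cows, so its r rested on those cows. MRPS18C also stood apart in its r with the array-wide component, -0.021 against -0.819 for MRPS18A and -0.662 for MRPS18B.

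The spread between cows was ordinary. The median residual SD was 0.210 log2 units for cytoplasmic and 0.233 for mitochondrial members, against 0.250 over all transcripts. RPL23 (0.078) and RPL19 (0.092) were the steadiest cytoplasmic members, and RPL38 (0.480), RPS23 (0.440) and RPS27L (0.419, transcript 12835544) the most variable. The signals of RPL38 and RPS23 were low. MRPL9 (0.123) and MRPS30 (0.137) were the steadiest mitochondrial members, and MRPL1 (0.393), MRPL58 (0.376) and MRPL47 (0.362) the most variable.

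More than 1 component was fitted to the residuals of 3 of 44 cytoplasmic and 1 of 77 mitochondrial members (normal mixtures chosen by BIC), against 5.21% of all transcripts. For RPL28, 19 cows had a mean residual of -0.51 and 126 cows one of 0.092. For RPLP2, a protein of the acidic stalk, 9 cows lay at -0.79 and 136 at 0.065. For RPL7L1, 1 cow lay at -0.89 and 144 at 0.0061, while a further fitted component held 0 cows, so this fit rests on 1 cow. For MRPL9, 4 cows lay at -0.32 and 141 at 0.0083. Among the clusters that held cows, the smaller was the lower one in each case.

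Gene lists for ribosome assembly and translation were read against the same background, in which 25.7% of all transcripts rose and 19.2% fell. Members of both classes were left out by symbol, so some ribosomal proteins under other kinds of symbol remain on the lists. Of 53 measured transcripts for ribosome biogenesis 11 rose (20.8%) and 8 fell (15.1%), both shares below that background, with a median slope of 0.0015 log2 units per year. NHP2 and NOP10, of the particles that convert uridine to pseudouridine in rRNA, rose by 0.066 and 0.049, and fibrillarin (FBL), which methylates rRNA, by 0.055. GNL3, a GTPase of the nucleolus, fell by 0.061, and WDR75 of early rRNA processing fell by 0.059. Of 47 transcripts for initiation and elongation factors of the cytoplasm and their regulators 17 rose (36.2%) and 9 fell (19.1%), with a median slope of -0.00057. FAU, whose product carries the ribosomal protein S30 and so is itself a ribosomal protein under another kind of symbol, rose most, by 0.070. EIF4A1, the helicase of initiation, rose by 0.043. EIF4G3 and EIF5 fell by 0.043 and 0.045, and MTOR, the kinase that drives translation of ribosomal protein messages, fell by 0.033.

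On the mitochondrial side, 9 of 28 transcripts for translation factors and related proteins rose (32.1%) and 2 fell (7.14%). SLIRP, which binds mitochondrial mRNA together with LRPPRC, rose by 0.061 and LRPPRC fell by 0.048. The elongation factors TUFM and TSFM rose by 0.044 and 0.046. Of 31 transcripts for mitochondrial ribosome assembly and RNA maturation 7 rose (22.6%) and 4 fell (12.9%), near or below the shares of all transcripts. DAP3 of this list and PTCD3 of the one before are small-subunit proteins of the mitochondrial ribosome under other kinds of symbol. Neither passed the test, with slopes of -0.0028 and -0.025. HSD17B10, a subunit of mitochondrial RNase P, rose by 0.063 and MALSU1, an assembly factor of the large subunit, by 0.060. TFAM, which packs mitochondrial DNA, fell by 0.055, TFB1M, the rRNA methyltransferase, fell by 0.041, and PNPT1, the RNA exonuclease, fell by 0.082. With the array-wide component these genes that fell had r = 0.910 for TFAM, 0.932 for LRPPRC, 0.815 for TFB1M and 0.838 for PNPT1, while MTOR, which also fell, had -0.626.

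The genes outside both classes whose residuals followed the cytoplasmic score most closely were UXT, a protein of the prefoldin family (r = 0.914), LOC524507 (0.891), ATP5MJ, a small subunit of ATP synthase (0.866), LOC515042 (0.864), POLR2H, a subunit common to the nuclear RNA polymerases (0.861), and RACK1, which is bound to the small ribosomal subunit (0.859). CDK4, DAD1, PRDX4, CNPY2, LOC784931 and PFDN5 followed with r from 0.849 to 0.841. LOC524507 and LOC784931 also appear beside RPS19 and RPS15A in transcripts with several symbols. For the mitochondrial score they were POLR2I of RNA polymerase II (0.877), CNPY2 (0.862), LAMTOR2 of the lysosomal Ragulator complex (0.861), RNF181 (0.850), NDUFAB1, the acyl carrier of complex I (0.845), and COX14, which helps assemble cytochrome c oxidase (0.845). STX8, COX5A, OST4, NAA38, BOLA3 and EIF3I completed the 12, with r from 0.844 to 0.827. CNPY2 stood on both lists. All genes of the 2 lists also rose with the year of slaughter (limma, largest adjusted p = 3.3e-05, that of CDK4). Their slopes went from 0.021 (RACK1) to 0.140 (POLR2I) and 0.171 log2 units per year (LOC784931). The steepest member, RPL7A, had 0.118. The rise was thus not particular to the 2 classes.

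Cell type markers were read beside these results. CYP11A1, which marks the steroid-producing cortex, had a mean log2 signal of 13.14 on arrays whose values spanned 1.31 to 14.495. Of 7 transcripts for cortex markers 1 rose with the year, that of CYP11A1, by 0.015 ± 0.0042 log2 units per year (limma adjusted p = 0.0029). The other cortex transcripts, with slopes from -0.018 (NR5A1) to 0.0098 (CYP21A2), did not pass. Of 5 medulla markers 0 passed, and their residual SD had a median of 1.01 log2 units. PECAM1 of endothelium (1 of 3) rose by 0.022 and AIF1 of macrophages (1 of 3) by 0.072, while 0 of 2 lymphocyte markers and 0 of 1 fibroblast marker passed. As 25.7% of all transcripts rose, these marker counts were near or below the background. None of the listed erythrocyte and adipocyte markers was measured under a single symbol. The mean log2 signal of the cortex list was 11.94 to 12.43 (median 12.25) in the cows up to 2008 and 12.08 to 12.38 (median 12.27) in the later cows. That of the macrophage list was 6.42 to 9.21 (median 7.20) and 6.59 to 8.56 (median 7.37), that of the endothelium list 9.07 to 9.71 (median 9.45) and 8.87 to 9.99 (median 9.49), and that of the medulla list 7.20 to 12.07 (median 10.31) and 7.86 to 12.15 (median 10.34). The medulla list thus varied widely between cows and hardly at all between periods. The list means of residuals correlated with the cytoplasmic and the mitochondrial score at 0.303 and 0.464 for the cortex, 0.087 and -0.058 for the medulla, 0.289 and 0.243 for macrophages, 0.106 and 0.115 for endothelium and 0.177 and 0.139 for lymphocytes. For the single fibroblast marker, DCN, they were -0.122 and -0.408. Its log2 signal was 10.62 to 13.10 (median 12.09) up to 2008 and 11.12 to 13.02 (median 12.03) later, and the lymphocyte list had 6.21 to 9.43 (median 7.33) and 6.05 to 9.21 (median 7.37). The part of these cell types in the rise was not tested.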

How the data were processed

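RNA of adrenal cortex was hybridised to the Affymetrix GeneChip Bovine Gene v1 Array, 1 array for each cow. The deposited values are log2 signals that the authors made by RMA in Affymetrix Expression Console (background correction, quantile normalization, summary over probes), and transcripts not detected above background had been left out. The number of arrays limits the precision. Of 147 columns 2 hold samples without a year-season label and were not used. Gene names came from the platform annotation, with 8863 transcripts carrying 1 symbol.

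Fits used limma 3.58.1 in R 4.3.3. A model with 25 year-season classes and age per 100 days gave the F-test, the age slope and the residuals (119 residual degrees of freedom). A model with year, season and age, with the class as a random block (statmod 1.5.0), gave the year slope and the season contrasts. p-values were adjusted by Benjamini-Hochberg over 10986 transcripts. Mixtures of 1 to 3 components used mclust 6.1.1. The fits were tested on simulated data. The 2 classes, the gene lists and the tests were chosen with earlier results of these data known, although the rule for members reads only symbols. Named members were those with an association in the study, the largest slopes and F, the largest and smallest residual SD, the most and least correlated members, genes with several transcripts and paralogs. In the gene lists they were those with the largest slopes, and others named were chosen after their values were seen. Alternatives were other covariates, subsets of cows, filters and correlation measures. Promoter and protein sequences were not used here.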

Additional observations from a re-analysis of the deposited data

Results flagged for a closer look

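In 128 groups of 4 to 10 cows (42 of them for the class means), 9 had a highest or lowest cow that stood apart from the others by Dixon's criterion. Chance flags about 1 in 20 groups. The mean log2 signal of the cytoplasmic class had a low cow in autumn 2010 (10.13, the next at 10.41, 6 cows) and in summer 2011 (10.24, the next at 10.41, 6 cows). The mitochondrial mean had a low cow in summer 2008 (8.512, the next at 8.714, 8 cows). Of single members, RPL19 had a low cow in the third year (7.225) and RPS27L (transcript 12691842) a low cow in the first year (10.09). RPL26L1 had a high cow in the third year (6.403), MRPL23 (transcript 12833327) a high cow in the third year (7.684), and MRPS16 a high cow in the first year (8.756) and in the third year (9.075).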

How the results depend on the processing

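No paired analysis was possible because the labels give the cows no shared replicate numbers. With each year left out in turn, 36 to 41 cytoplasmic and 51 to 58 mitochondrial transcripts rose, where 20.1% to 26.2% of all transcripts rose. The median slopes were 0.043 to 0.053 and 0.037 to 0.046 log2 units per year. Leaving out a year gave 0 calls for summer minus winter and age, and 14 to 32 and 21 to 32 calls for year-season class. The lowest counts came without 2010 and without 2011, where 5.31% and 6.5% of all transcripts were called. For the other years this share was not at hand. Leaving out a year gave a median residual SD of 0.198 to 0.212 and 0.223 to 0.240. In the cows from the fourth year on the median slopes were 0.070 and 0.055. The following subsets were added after the data were seen. Up to 2008, 2 cytoplasmic members were called for the year slope, 1 up and 1 down, and 7 mitochondrial members rose. Of all transcripts 2.45% rose there and 2.79% fell. The median slopes were 0.0044 and 0.019. From 2009 on 8 and 3 rose (3.09% of all transcripts). In winter cows alone 17 and 22 rose (medians 0.066 and 0.059; 7.99% of all transcripts), in spring cows 32 and 41 (10.4%), in summer cows 29 and 28 (10.2%) and in autumn cows 11 and 21 (3.87%). With the first residual component as a covariate, 69 mitochondrial members were called for year-season class (52.3% of all transcripts). For summer minus winter 1 mitochondrial member was called, MRPL3 (-0.18 log2 units, limma adjusted p = 0.040), against 0.91% of all transcripts. For age 6 mitochondrial and 1 cytoplasmic member were called, against 5.97% of all transcripts. The mitochondrial residual SD was 0.174 with this covariate. Subsets of cows hold fewer cows. Otherwise the cause of these shifts was not tested.

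Some year slopes that passed the test in the main fit or in another setting turned their sign. Sign changes of slopes that passed in neither fit are not listed. Up to 2008 they were -0.075 for RPL15, -0.0034 for RPL19, -0.013 for RPL22L1, -0.016 for RPL38, -0.059 for RPL7A, -0.016 and -0.047 for RPS27L, 0.018 for MRPL23 (transcript 12833327), -0.0085 for MRPL33 (transcript 12707949), -0.011 for MRPS18B and -0.014 for MRPS30, and of these only that of RPL15 passed the test. MRPS10 had 0.028 from 2009 on and 0.087 in winter, and RPL39 (transcript 12910359) had -0.012 in winter, none past the test. MRPL1 had 0.027 with the array-wide axis as a covariate (limma adjusted p = 0.021). In the other settings run, 788 slopes of named members were called in both fits with the same sign or in neither fit. A further 130 kept the sign and lost the call, and 9 kept the sign and gained it.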
